A study of Mus musculus with 27 samples.

Results

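The genes described here, 9 in number, serve glucose metabolism in the liver and were followed across 9 inbred mouse strains: *Pcx*, *Pck1*, *Fbp1* and *G6pc*, which encode the enzymes particular to gluconeogenesis, *Pklr*, which encodes liver pyruvate kinase, *Slc2a2*, which encodes the glucose transporter GLUT2, *Ppargc1a*, which encodes the coactivator PGC-1α, and *Irs1* and *Irs2*, which encode adaptors of the insulin receptor. They were found by their gene symbols, and 9 of 9 were present among the 43346 genes of the count table. RNA came from hepatocytes, the main cell type of the liver, of untreated female mice aged 12 weeks. The strains 129S1/SvImJ, A/J, C57BL/6J, CAST/EiJ, DBA/2J, NZO/HlLtJ, NOD/ShiLtJ, PWK/PhJ and WSB/EiJ were each represented by 3 libraries that the labels call biological replicates. As background, NZO/HlLtJ develops polygenic obesity and type 2 diabetes, mainly in males, and NOD/ShiLtJ develops autoimmune diabetes, mainly in females. The labels name no blood glucose, feeding state or hour of collection, so these strains are called diabetes-prone here from what is known of them and not from a measured state.

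The liver makes glucose from lactate, amino acids and glycerol during fasting. Pyruvate carboxylase (*Pcx*) and phosphoenolpyruvate carboxykinase (*Pck1*) together bypass the pyruvate kinase step, and fructose-1,6-bisphosphatase (*Fbp1*) and glucose-6-phosphatase (*G6pc*) bypass the other steps of glycolysis that run one way. Glucagon and glucocorticoids raise *Pck1* and *G6pc* transcription, partly through PGC-1α, and insulin lowers it through IRS1, IRS2 and the kinase AKT. GLUT2 lets glucose cross the hepatocyte membrane in both directions, and *Pklr* is induced by glucose through the carbohydrate response factor ChREBP.

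Library totals ranged from 17015956 to 35078511 estimated counts, and 14482 genes passed the filter on low counts, all 9 members among them. Levels below are CPM, the counts of a gene relative to the library total scaled by TMM factors, and differences between strains are log2 values from edgeR's quasi-likelihood test with its standard error (SE) and Benjamini-Hochberg adjustment over all genes tested, called at an adjusted p under 0.05. All 12 hepatocyte marker genes were detected, and their summed level ran from 141100 to 408000 CPM. Markers of other cells were present at low levels: the summed level of 12 Kupffer cell (liver macrophage) genes ran from 37.36 to 464.5 CPM and that of 12 endothelial genes from 76.94 to 926 CPM, while 12 lymphocyte genes reached at most 2.835 CPM. In these bulk samples, fewer cells of a type and less RNA per cell cannot be told apart.

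Per kilobase of exon, *Pck1* was the most abundant member, with 437.9 ± 223 RPKM (CPM divided by the exon length in kilobases, SD over 27 libraries). *Fbp1* had 363.3 ± 101.9 RPKM, *G6pc* 259.2 ± 122.9 and *Pcx* 106.6 ± 20.17. *Slc2a2* had 60.84 ± 21.14 RPKM and *Pklr* 36.21 ± 11.32. The regulators were far lower, with 2.113 ± 1.029 RPKM for *Irs2*, 2.072 ± 0.5891 for *Irs1* and 1.161 ± 0.4178 for *Ppargc1a*. *Ppargc1a* rested on 104 to 362 counts in a library and *Irs2* on 95 to 975, whereas each of the 4 gluconeogenic enzymes had at least 6047.

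Strain had an effect on all 9 members (9 of 9 called, where 74.2% of all genes tested were called). The test was clearest for *Slc2a2* (adjusted p 7.96e-05) and least clear for *Irs2* (adjusted p 0.0454). *Pklr* (0.00106), *Fbp1* (0.00114), *Irs1* (0.00318) and *G6pc* (0.00905) came before *Ppargc1a* (0.0143), *Pcx* (0.0156) and *Pck1* (0.0177) in edgeR adjusted p. The *Irs2* call was lost in 19 of 27 leave-one-out fits (adjusted p up to 0.087), and the *Ppargc1a* call was lost without WSB/EiJ replicate 4 (adjusted p 0.0594). Relative to the mean of the other 8 strains, NZO/HlLtJ had all 9 members on the lower side of the fit (48.8% of all genes tested were on that side) and WSB/EiJ all 9 on the higher side, called or not (50.1% of all genes were on the lower side there). The summed hepatocyte markers also differed between these strains, with 149300 to 156600 CPM in NZO/HlLtJ and 273800 to 294200 CPM in WSB/EiJ, though they were as low in CAST/EiJ (141100 to 154100 CPM) and highest in A/J (295000 to 408000 CPM). The part of these levels in the values of the members was not tested.

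**Figure D1:**
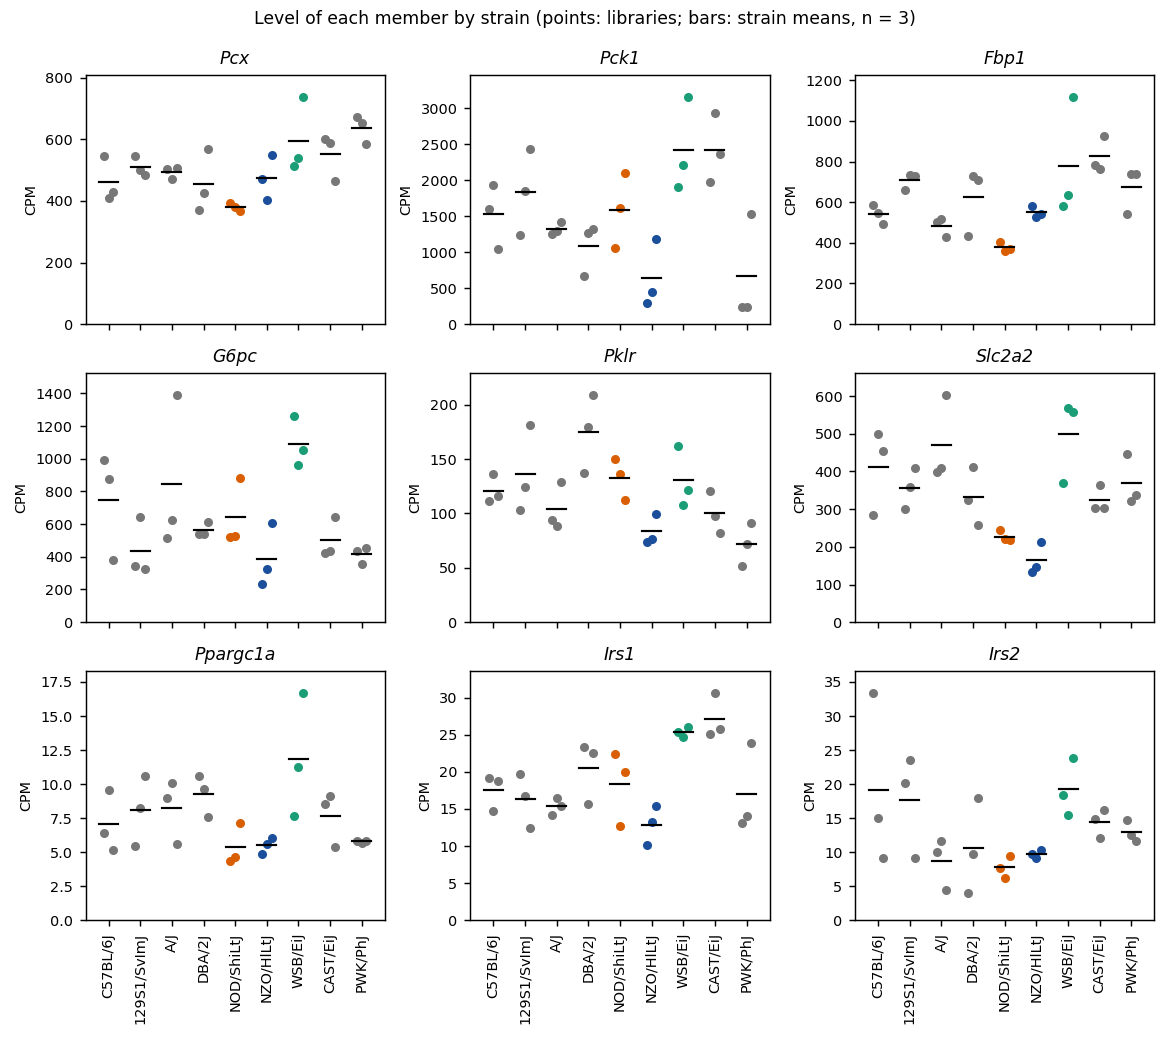
Level of each of the 9 genes in each library (points, CPM on a linear axis from 0) by strain, with the strain mean (bar, n = 3). NOD/ShiLtJ is orange, NZO/HlLtJ blue and WSB/EiJ green. The 3 NZO/HlLtJ libraries lie below the 24 others for Slc2a2 and the 3 NOD/ShiLtJ libraries below the 24 others for Fbp1.

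*Pcx* encodes the mitochondrial enzyme that makes oxaloacetate from pyruvate. It varied least among the members, with an SD of 0.22 between strain means and 0.2 within strains on the log2 scale. From highest to lowest, mean levels were 637 ± 46.4 CPM in PWK/PhJ, 596.1 ± 123 in WSB/EiJ, 551.9 ± 75.8 in CAST/EiJ, 510.9 ± 31.6 in 129S1/SvImJ, 494 ± 19.3 in A/J, 473.6 ± 73.6 in NZO/HlLtJ, 461.4 ± 74.5 in C57BL/6J, 454.6 ± 101 in DBA/2J and 380 ± 13.8 in NOD/ShiLtJ (SD, n = 3 each). The NOD/ShiLtJ libraries had 366.3, 379.9 and 393.9 CPM, and 1 library of another strain, from DBA/2J, lay among them at 372 CPM. The difference of NOD/ShiLtJ from the mean of the others was -0.45 ± 0.13 (SE, edgeR adjusted p 0.0242), and it was not past the threshold without any 1 of the NOD/ShiLtJ libraries (adjusted p 0.0789 to 0.125). In PWK/PhJ *Pcx* was higher by 0.39 ± 0.12 (SE, edgeR adjusted p 0.0174), which was lost without replicate 1 (0.0908) or replicate 2 (0.0817) of that strain.

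*Pck1* encodes the cytosolic enzyme that turns oxaloacetate into phosphoenolpyruvate. It had the widest spread of the members, with an SD of 0.86 between strain means and 0.72 within strains on the log2 scale. Mean levels were 2426 ± 648 CPM in WSB/EiJ, 2423 ± 480 in CAST/EiJ, 1842 ± 602 in 129S1/SvImJ, 1587 ± 519 in NOD/ShiLtJ, 1523 ± 454 in C57BL/6J, 1318 ± 85.6 in A/J, 1083 ± 364 in DBA/2J, 670.4 ± 741 in PWK/PhJ and 640.5 ± 470 in NZO/HlLtJ (SD, n = 3 each). The 2 lowest strains were each split. The NZO/HlLtJ libraries had 298.5, 446.7 and 1176 CPM, and the PWK/PhJ libraries 241.5, 243.7 and 1526 CPM. Replicates 1 and 2 of both strains lay below every library of the other 7 strains, whose lowest was a DBA/2J library at 663.8 CPM, and replicate 3 of both strains lay among those libraries.

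The fitted difference of *Pck1* from the mean of the others was -1.22 ± 0.44 in NZO/HlLtJ (2.34-fold lower, SE, edgeR adjusted p 0.0416) and -1.15 ± 0.44 in PWK/PhJ (2.22-fold lower, adjusted p 0.0451). In NZO/HlLtJ the call was lost in 9 of 27 leave-one-out fits: without its replicate 1 (-0.88, adjusted p 0.244) or replicate 2 (-1.02, adjusted p 0.206), and without 129S1/SvImJ replicate 3, A/J replicate 3, C57BL/6J replicate 2, CAST/EiJ replicate 4, DBA/2J replicate 3 or NOD/ShiLtJ replicates 2 or 3 (adjusted p 0.0507 to 0.0516). In PWK/PhJ it was lost in 16 of 27 (adjusted p up to 0.271, without its replicate 2). Without replicate 3, the high library of each strain, the difference was -2 in NZO/HlLtJ (edgeR adjusted p 0.00903) and -2.62 in PWK/PhJ (edgeR adjusted p 5.8e-05). CAST/EiJ was higher by 0.94 ± 0.36 (SE, edgeR adjusted p 0.0457), a call lost in 16 of 27 fits (adjusted p up to 0.204, without its replicate 4). WSB/EiJ, with 1908, 2217 and 3153 CPM, had the same fitted value of 0.94 ± 0.36 and was not past the threshold (SE, edgeR adjusted p 0.0619), though it was in 2 of 27 leave-one-out fits, without PWK/PhJ replicate 3 (1.12, adjusted p 0.00237) or NZO/HlLtJ replicate 3 (1.04, adjusted p 0.0245), and with no filter on low counts (adjusted p 0.0134). NOD/ShiLtJ had 1057, 1610 and 2095 CPM, in the middle of the range, and its fitted difference was 0.25 ± 0.39 (SE, edgeR adjusted p 0.737).

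*Fbp1* encodes fructose-1,6-bisphosphatase. Mean levels were 825.4 ± 87.8 CPM in CAST/EiJ, 778.5 ± 294 in WSB/EiJ, 709 ± 42 in 129S1/SvImJ, 673.2 ± 113 in PWK/PhJ, 623.4 ± 166 in DBA/2J, 551.2 ± 28.7 in NZO/HlLtJ, 543.2 ± 46.3 in C57BL/6J, 482.4 ± 47.9 in A/J and 379.1 ± 21.9 in NOD/ShiLtJ (SD, n = 3 each). The NOD/ShiLtJ libraries had 362.1, 371.3 and 403.7 CPM and did not overlap the 24 others, of which the lowest was an A/J library at 428 CPM. The difference was -0.75 ± 0.17 (1.68-fold lower, SE, edgeR adjusted p 0.00236). It kept its call in all 27 leave-one-out fits (-0.8 to -0.71, adjusted p up to 0.0279).

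*Fbp1* in NZO/HlLtJ lay in the middle of the order, with 527.8, 542.7 and 583.2 CPM and a difference of -0.14 ± 0.16 (SE, edgeR adjusted p 0.521). CAST/EiJ was higher by 0.51 ± 0.15 (SE, edgeR adjusted p 0.00863), which was lost without its replicate 5 (0.42, adjusted p 0.0847). WSB/EiJ was higher by 0.42 ± 0.15 (SE, edgeR adjusted p 0.0442), and this rested on replicate 4, at 1117 CPM beside 582.9 and 635.3 CPM: without that library the difference was 0.06 (adjusted p 0.835). The WSB/EiJ call was lost in 12 further fits without a library of another strain (adjusted p 0.051 to 0.0569).

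*G6pc* encodes the phosphatase that releases free glucose, the last step of gluconeogenesis and of glycogen breakdown. Mean levels were 1092 ± 156 CPM in WSB/EiJ, 844 ± 475 in A/J, 749.7 ± 325 in C57BL/6J, 642.9 ± 209 in NOD/ShiLtJ, 563.4 ± 42.7 in DBA/2J, 501.6 ± 121 in CAST/EiJ, 435.7 ± 179 in 129S1/SvImJ, 414.9 ± 49.6 in PWK/PhJ and 386.6 ± 194 in NZO/HlLtJ (SD, n = 3 each). The WSB/EiJ libraries had 959.3, 1052 and 1264 CPM, and 1 A/J library (1388 CPM) and 1 C57BL/6J library (992 CPM) were the others above 959.3 CPM. WSB/EiJ was higher by 1 ± 0.26 on the log2 scale (2-fold, SE, edgeR adjusted p 0.00555), and without its replicate 2 the adjusted p was 0.0532.

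The NZO/HlLtJ libraries had 231.6, 323.8 and 604.4 CPM of *G6pc*, the first being the lowest of all 27. The difference from the mean of the others was -0.69 ± 0.3 (1.61-fold lower, SE) and was not past the threshold (edgeR adjusted p 0.0876). It was past it without NZO/HlLtJ replicate 3 (-1.16, adjusted p 0.0211) and with DESeq2 (-0.7, adjusted p 0.0383). The NOD/ShiLtJ libraries had 519.8, 524.6 and 884.4 CPM, with a difference of 0.14 ± 0.28 (SE, edgeR adjusted p 0.81).

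*Slc2a2* encodes GLUT2, the main glucose carrier of the hepatocyte membrane. Mean levels were 499.2 ± 112 CPM in WSB/EiJ, 470.4 ± 114 in A/J, 412 ± 113 in C57BL/6J, 368.1 ± 67.7 in PWK/PhJ, 355.3 ± 54.7 in 129S1/SvImJ, 331.7 ± 76.7 in DBA/2J, 323 ± 34.7 in CAST/EiJ, 227.2 ± 15.4 in NOD/ShiLtJ and 164.3 ± 42.7 in NZO/HlLtJ (SD, n = 3 each). The NZO/HlLtJ libraries had 134, 145.8 and 213.1 CPM, below all 24 others. The NOD/ShiLtJ libraries followed with 217.1, 219.6 and 244.9 CPM, below every library of the 7 remaining strains, whose lowest was a DBA/2J library at 259 CPM. The diabetes-prone strains held the 6 lowest of 27 libraries for this gene. The share of all genes in which 2 strains hold the 6 lowest or highest libraries was not counted.

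*Slc2a2* in NZO/HlLtJ was lower, with a difference of -1.15 ± 0.19 from the mean of the others (2.21-fold lower, SE, edgeR adjusted p 9.69e-05), and the call held in all 27 leave-one-out fits (-1.38 to -1.02, adjusted p up to 0.00364). NOD/ShiLtJ was lower, with a difference of -0.62 ± 0.18 (1.54-fold lower, SE, edgeR adjusted p 0.0232), which was lost without any 1 of its libraries (adjusted p 0.0639 to 0.115). WSB/EiJ was higher by 0.66 ± 0.16 (edgeR adjusted p 0.00441, and 0.0637 without its replicate 3). A/J was higher by 0.56 ± 0.17 (edgeR adjusted p 0.0145), which rested on replicate 3, at 602.1 CPM beside 399.1 and 410 CPM: without it the difference was 0.34 (adjusted p 0.278).

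*Pck1*, *G6pc* and *Slc2a2* had WSB/EiJ as the highest and NZO/HlLtJ as the lowest strain, and the reference sequences just before their starts are shown for that reason, a choice made after the values were seen. They are from RefSeq's table for GRCm38.p6, which is the C57BL/6J sequence and holds no variant of the other strains. Each run goes 5′ to 3′ on the coding strand and stops before the first base of the gene in GENCODE M21: chr2:173152823-173153047 (plus strand, 225 bases) for *Pck1*, chr11:101367466-101367560 (plus strand, 95 bases) for *G6pc* and chr3:28697653-28697902 (plus strand, 250 bases) for *Slc2a2*. Capitals mark TGACG (part of a cyclic AMP response element), TGTTT (the core of a forkhead site) and CACGTG (an E box), searched on both strands.
Pck1: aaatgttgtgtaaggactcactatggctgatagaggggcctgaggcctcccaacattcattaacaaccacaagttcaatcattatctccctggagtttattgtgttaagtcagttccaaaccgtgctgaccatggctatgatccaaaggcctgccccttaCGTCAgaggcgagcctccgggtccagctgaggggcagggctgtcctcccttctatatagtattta
G6pc: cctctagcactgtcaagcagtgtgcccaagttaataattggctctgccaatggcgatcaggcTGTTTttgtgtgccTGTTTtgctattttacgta
Slc2a2: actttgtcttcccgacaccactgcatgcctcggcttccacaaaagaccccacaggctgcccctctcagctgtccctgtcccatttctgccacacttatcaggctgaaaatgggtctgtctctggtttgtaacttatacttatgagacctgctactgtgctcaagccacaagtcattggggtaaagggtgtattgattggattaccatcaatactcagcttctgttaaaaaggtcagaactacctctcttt

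In the 250 bases before RefSeq's start, *Pck1* had 1 match to TGACG, on the minus strand at 90 to 86 bases before the start, *G6pc* had 4 matches to TGTTT, of which 2 lie in the printed bases, and *Slc2a2* had no match to the 3 motifs. Of the 9 members, 3 held TGACG (*Pck1*, *Ppargc1a* and *Irs1*), 3 held TGTTT (*G6pc*, *Irs1* and *Irs2*) and 3 held CACGTG (*Pcx*, *Irs1* and *Irs2*) in such a window. Among all 32851 promoters of the table, 17.8% held TGACG, 46.4% TGTTT and 6.02% CACGTG. In *Irs1* the CACGTG match overlaps a TGACG match on one side and a TGTTT match on the other. A match here is a description of letters and no measurement of binding.

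*Pklr* encodes the pyruvate kinase of liver, the last enzyme of glycolysis, which works against gluconeogenesis. Mean levels were 174.9 ± 36.1 CPM in DBA/2J, 136.1 ± 40.5 in 129S1/SvImJ, 133 ± 18.9 in NOD/ShiLtJ, 130.5 ± 27.9 in WSB/EiJ, 121.1 ± 13 in C57BL/6J, 103.7 ± 21.7 in A/J, 100.2 ± 19.5 in CAST/EiJ, 83.51 ± 14 in NZO/HlLtJ and 71.44 ± 20 in PWK/PhJ (SD, n = 3 each). DBA/2J had 136.9, 179.3 and 208.6 CPM, and was higher than the mean of the others by 0.7 ± 0.16 (1.63-fold, SE, edgeR adjusted p 0.00362), with an adjusted p of 0.0616 without its replicate 4. PWK/PhJ had 51.35, 71.71 and 91.26 CPM and was lower, with a difference of -0.75 ± 0.19 (1.68-fold lower, SE, edgeR adjusted p 0.00266).

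NZO/HlLtJ had 74.03, 76.94 and 99.56 CPM of *Pklr* and was lower, with a difference of -0.5 ± 0.18 (1.41-fold lower, SE, edgeR adjusted p 0.0432). Its libraries overlapped those of PWK/PhJ, A/J and CAST/EiJ. The call was lost in 11 of 27 leave-one-out fits, among them those without NZO/HlLtJ replicate 1 (-0.42, adjusted p 0.214) and replicate 2 (-0.44, adjusted p 0.194). The remaining 9 left out A/J replicate 3, C57BL/6J replicates 2 or 4, CAST/EiJ replicates 1 or 4, DBA/2J replicate 3, NOD/ShiLtJ replicates 1 or 2 or WSB/EiJ replicate 2 (adjusted p 0.0502 to 0.0636). In NOD/ShiLtJ, with 112.7, 136.2 and 150.1 CPM, the difference was 0.26 ± 0.17 (SE, edgeR adjusted p 0.345). *Pklr* shares 711 bases of exon with *Hcn3* on the opposite strand, and the library kit does not mark strand. *Pklr* also has fractional counts in 27 of 27 libraries, which makes its level uncertain. With the counts of *Hcn3* added, the NZO/HlLtJ difference was -0.51 (edgeR adjusted p 0.0391).

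*Ppargc1a* encodes PGC-1α, which binds transcription factors at gluconeogenic and mitochondrial genes. Mean levels were 11.86 ± 4.54 CPM in WSB/EiJ, 9.251 ± 1.54 in DBA/2J, 8.223 ± 2.34 in A/J, 8.129 ± 2.57 in 129S1/SvImJ, 7.675 ± 2.03 in CAST/EiJ, 7.044 ± 2.27 in C57BL/6J, 5.792 ± 0.076 in PWK/PhJ, 5.525 ± 0.59 in NZO/HlLtJ and 5.367 ± 1.52 in NOD/ShiLtJ (SD, n = 3 each). The WSB/EiJ libraries had 7.629, 11.29 and 16.66 CPM, and the difference from the mean of the others was 0.76 ± 0.2 (1.69-fold, SE, edgeR adjusted p 0.0072). Without replicate 4, the highest, it was 0.44 (adjusted p 0.216). The diabetes-prone strains had the lowest means, but neither difference was past the threshold: -0.48 ± 0.22 in NZO/HlLtJ (SE, edgeR adjusted p 0.113) and -0.53 ± 0.23 in NOD/ShiLtJ (SE, edgeR adjusted p 0.134).

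*Irs1* encodes an adaptor that couples the insulin receptor to phosphoinositide 3-kinase. Mean levels were 27.17 ± 2.96 CPM in CAST/EiJ, 25.36 ± 0.729 in WSB/EiJ, 20.56 ± 4.21 in DBA/2J, 18.35 ± 5.1 in NOD/ShiLtJ, 17.56 ± 2.48 in C57BL/6J, 16.99 ± 5.97 in PWK/PhJ, 16.3 ± 3.63 in 129S1/SvImJ, 15.34 ± 1.14 in A/J and 12.91 ± 2.65 in NZO/HlLtJ (SD, n = 3 each). CAST/EiJ (25.12, 25.83 and 30.57 CPM) and WSB/EiJ (24.64, 25.33 and 26.1 CPM) held the 6 highest libraries. CAST/EiJ was higher by 0.63 ± 0.16 (SE, edgeR adjusted p 0.00327) and WSB/EiJ by 0.51 ± 0.16 (SE, edgeR adjusted p 0.0217, and 0.0711 to 0.0894 without any 1 of its libraries). Both calls were lost with the replicate number added to the fit as a block.

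NZO/HlLtJ had 10.09, 13.26 and 15.36 CPM of *Irs1*, a range that libraries of 5 other strains also reached. The difference was -0.58 ± 0.18 (1.5-fold lower, SE, edgeR adjusted p 0.0174), and it was lost without its replicate 1 (-0.43, adjusted p 0.17) or replicate 2 (-0.6, adjusted p 0.0705). NOD/ShiLtJ had 12.65, 19.93 and 22.46 CPM and a difference of -0.01 ± 0.17 (SE, edgeR adjusted p 0.996). The level of *Irs1* is uncertain, because 2822 bases of its exons are shared with *Gm9747* on the opposite strand and it has fractional counts in 27 of 27 libraries. *Gm9747* averaged 1.58 ± 0.297 CPM in NZO/HlLtJ and from 3.67 to 7.11 CPM in the other strains. With its counts added to *Irs1*, the differences were -0.76 in NZO/HlLtJ (edgeR adjusted p 0.00119), 0.48 in WSB/EiJ (0.0165) and 0.53 in CAST/EiJ (0.00592).

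*Irs2* encodes the second adaptor, whose transcription insulin lowers. Mean levels were 19.24 ± 4.29 CPM in WSB/EiJ, 19.13 ± 12.6 in C57BL/6J, 17.64 ± 7.57 in 129S1/SvImJ, 14.4 ± 2.1 in CAST/EiJ, 12.97 ± 1.64 in PWK/PhJ, 10.58 ± 7.02 in DBA/2J, 9.727 ± 0.625 in NZO/HlLtJ, 8.723 ± 3.81 in A/J and 7.813 ± 1.64 in NOD/ShiLtJ (SD, n = 3 each). Libraries of 1 strain differed widely: the DBA/2J libraries had 4.012, 9.742 and 17.98 CPM (4.48-fold from lowest to highest) and those of C57BL/6J 9.086, 14.99 and 33.32 CPM. NOD/ShiLtJ had 6.236, 7.692 and 9.512 CPM and NZO/HlLtJ 9.111, 9.709 and 10.36 CPM. Neither differed from the mean of the others past the threshold, with -0.79 ± 0.35 in NOD/ShiLtJ (SE, edgeR adjusted p 0.143) and -0.43 ± 0.33 in NZO/HlLtJ (SE, edgeR adjusted p 0.347). The level of *Irs2* is uncertain, with fractional counts in 10 of 27 libraries.

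Counted by strain, the members called lower in NZO/HlLtJ were *Slc2a2*, *Pck1*, *Irs1* and *Pklr*, 4 of 9, where 27.6% of all genes tested were called (12.9% lower). The median difference over the 9 members was -0.5, and over all genes tested 0.02. In NOD/ShiLtJ *Fbp1*, *Pcx* and *Slc2a2* were called lower, 3 of 9, where 14.9% of all genes were called (5.72% lower), with a median of -0.45 over the members and 0.02 over all genes. In WSB/EiJ 5 of 9 were called higher, where 24.7% of all genes were called (15.5% higher), with a median of 0.66 over the members and 0 over all genes. *Slc2a2* was the member called lower in both diabetes-prone strains, and these comparisons share libraries.

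In the other strains, calls went in either direction. CAST/EiJ had 3 of 9 called, all higher, where 37.9% of all genes were called (20.1% higher). PWK/PhJ had 3, of which *Pcx* was higher and *Pck1* and *Pklr* lower, where 34.2% of all genes were called. A/J had 1, *Slc2a2*, where 27.5% were called (15.9% higher), and DBA/2J 1, *Pklr*, where 13.3% were called (9.5% higher). In C57BL/6J (18.1%) and 129S1/SvImJ (18.4%) edgeR called 0 members and DESeq2 0, and 1 and 0 members had an unadjusted p under 0.05.

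**Figure D2:**
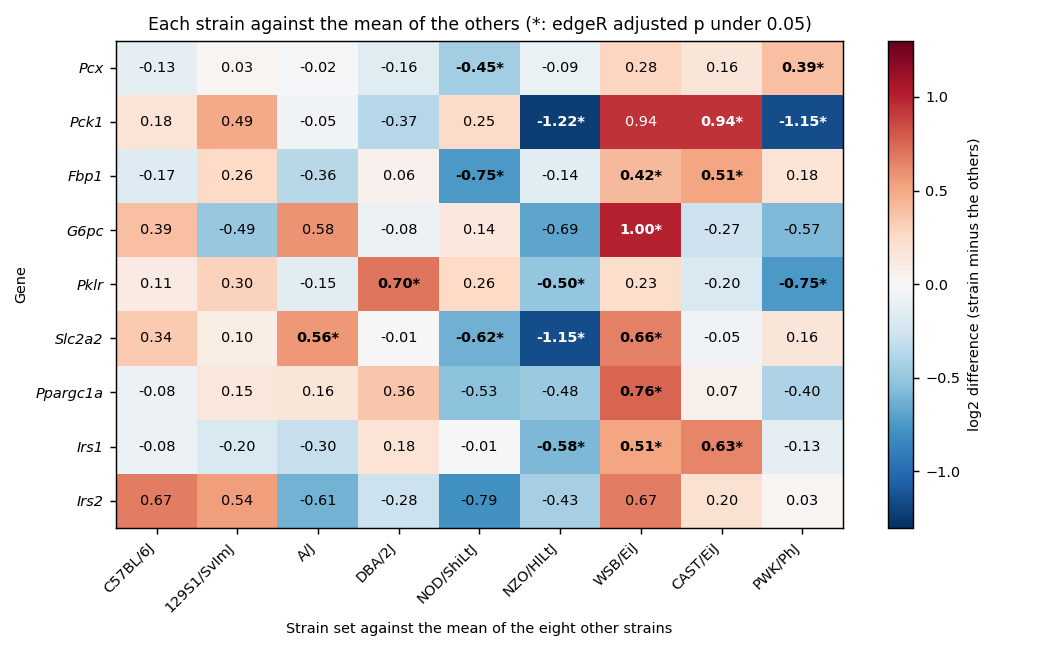
Fitted log2 difference of each strain from the mean of the other 8 strains for each of the 9 genes (colour and number, red higher and blue lower), with an asterisk at an edgeR adjusted p under 0.05. The NZO/HlLtJ column is negative in all 9 rows, with 4 called, and the WSB/EiJ column positive in all 9, with 5 called.

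NZO/HlLtJ set directly against NOD/ShiLtJ gave 0 members called by edgeR (10.4% of all genes), 4 with an unadjusted p under 0.05 and 1 called by DESeq2 (*Pklr*). The largest differences were -1.31 ± 0.54 for *Pck1* (edgeR adjusted p 0.132), -0.73 ± 0.38 for *G6pc* (0.249), -0.67 ± 0.23 for *Pklr* (0.0665) and 0.54 ± 0.21 for *Fbp1* (0.105, SE in each case). *Slc2a2*, low in both strains, had a difference of -0.47 between them ± 0.23 (SE, edgeR adjusted p 0.233). These values do not show that the strains are alike in these genes. Fits without NZO/HlLtJ replicate 3 (-2.09, adjusted p 0.026) or PWK/PhJ replicate 3 (-1.31, adjusted p 0.0295) called *Pck1*, those without 129S1/SvImJ replicate 3 or PWK/PhJ replicate 1 called *Pklr* (adjusted p 0.0492 and 0.0462), and that without WSB/EiJ replicate 4 called *Fbp1* (adjusted p 0.0434).

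Over the 36 pairs of strains, 61 of 324 member tests were called (18.8%), where 23.4% of all tests over genes and pairs were called. *Slc2a2* differed in 12 of 36 pairs, of which 7 of 8 were with NZO/HlLtJ and 4 of 8 with NOD/ShiLtJ. The largest of these differences was between NZO/HlLtJ and WSB/EiJ, -1.6 ± 0.24 (3.04-fold lower, SE, edgeR adjusted p 1.9e-05). *Fbp1* differed in 10 pairs, 5 of them with NOD/ShiLtJ, *Pklr* and *Irs1* in 9 each, *G6pc* in 6, *Pck1* and *Pcx* in 5 each, *Ppargc1a* in 3 and *Irs2* in 2. Strains next to each other in the order of a gene were not told apart: the smallest edgeR adjusted p among neighbours was 0.111, for *Slc2a2*. In *Pck1*, NZO/HlLtJ lay below WSB/EiJ, with a difference of -1.92 ± 0.55 (3.79-fold, SE, edgeR adjusted p 0.0092) and below CAST/EiJ, with a difference of -1.92 ± 0.55 (SE, edgeR adjusted p 0.0101).

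Libraries of the same strain also differed. On the log2 scale the within-strain SD was 0.72 for *Pck1*, 0.62 for *Irs2* and 0.51 for *G6pc*, and from 0.2 (*Pcx*) to 0.39 (*Ppargc1a*) for the other members. Deviations from the strain means were compared between members over the 27 libraries, with 100000 permutations of libraries within strains (two-sided). Of 36 pairs of members, 5 had an unadjusted permutation p under 0.05 for Pearson's r and 0 passed after adjustment. The smallest p belonged to *Pck1* and *Ppargc1a* (r = 0.34, permutation p 0.012, adjusted 0.16, Spearman's rho 0.44, permutation p 0.021), *Fbp1* and *Irs2* (r = 0.53, permutation p 0.013, adjusted 0.16, rho 0.56, permutation p 0.013) and *Pck1* and *G6pc* (r = 0.44, permutation p 0.014, adjusted 0.16, rho 0.46, permutation p 0.022). Without the 2 libraries farthest from the median of the first gene, r was 0.43, 0.41 and 0.4.

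The genes whose levels were most like each member were sought among 6083 other protein-coding genes averaging at least 10 CPM, by Pearson's r of log2 CPM over the 27 libraries. These r are descriptions over libraries that share strains. For *Slc2a2* they were *Igf2r* (r = 0.937, and 0.853 for deviations from strain means), the receptor that carries IGF2 and lysosomal enzymes, and *Mfsd4b1* (0.924). For *Pck1* they were *Per1*, a clock gene that glucocorticoids induce (0.837, and 0.814 within strains), and *Cyp39a1* (0.79, but 0.324 within strains). For *G6pc* they were *Slc38a2*, an amino acid transporter (0.848), and *Tob1* (0.744), and for *Fbp1* *Atp5g1*, a subunit of the mitochondrial ATP synthase (0.816).

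*Per1* followed *Pck1* in the strains where *Pck1* was split. It had 1.35, 1.47 and 20.2 CPM in NZO/HlLtJ replicates 1 to 3 and 0.639, 0.893 and 14.7 CPM in PWK/PhJ replicates 1 to 3, so that replicate 3 of each strain was the high library for both genes. Those libraries were also the highest of their strain in the mean log2 CPM of a list of 13 clock genes (2.59, 2.64 and 3.08 in NZO/HlLtJ, 2.54, 2.59 and 3.31 in PWK/PhJ) and of 9 fasting-induced genes (5.56, 5.78 and 6.6 in NZO/HlLtJ, 5.15, 5.34 and 6.25 in PWK/PhJ). Both lists hold *Per1*, which was picked for its likeness to *Pck1* in these same libraries. The list means were not computed without *Per1*, so they are not separate from its split. A list of 9 feeding-induced genes did not split these libraries (7.2 in each NZO/HlLtJ library, and 7.9, 8.14 and 8.1 in PWK/PhJ replicates 1 to 3). A list of 13 immediate early genes, which respond fast to stimuli and handling, was lowest in replicate 3 of each strain (2.27, 2.06 and 1.48 in NZO/HlLtJ, 2.91, 2.87 and 1.29 in PWK/PhJ). The part of feeding state, hour of collection or handling in the *Pck1* values was not tested. WSB/EiJ replicate 4, on which the *Fbp1* and *Ppargc1a* calls of that strain rested, was the highest library of its strain for both lists too (4.13 and 6.94, beside 3.44 and 6.38 in replicate 2 and 3.22 and 6.11 in replicate 3).

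**Figure D3:**
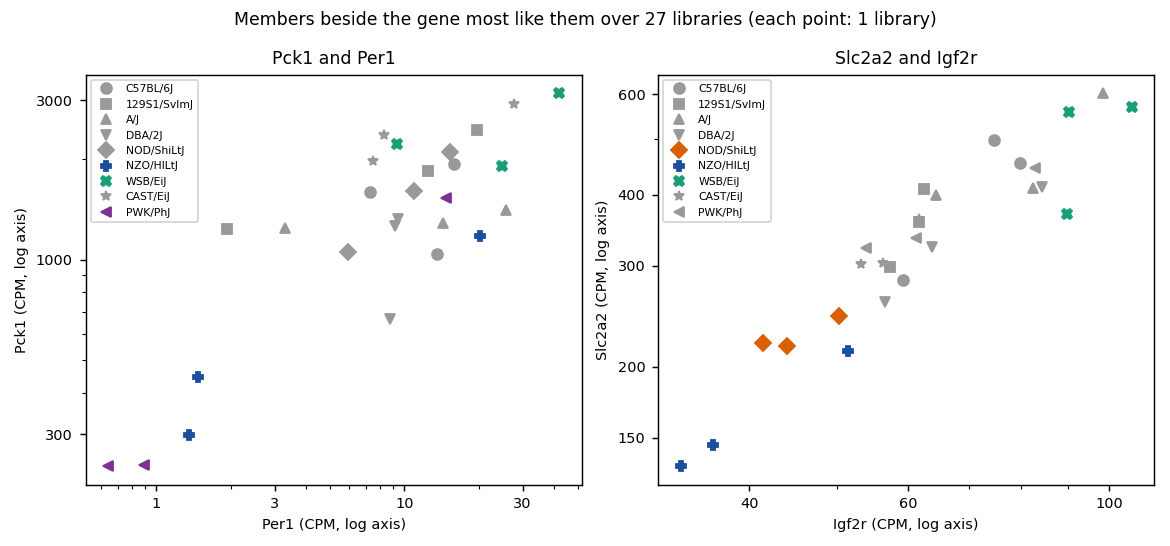
Left, Pck1 against Per1, and right, Slc2a2 against Igf2r, in CPM on log axes, each point 1 of 27 libraries and each marker a strain. On the left NZO/HlLtJ (blue) and PWK/PhJ (purple) each have 2 libraries at the lower left and 1 among the other strains. On the right NZO/HlLtJ (blue) and NOD/ShiLtJ (orange) lie at the lower left. WSB/EiJ (green in both) lies toward the right, from 370.5 to 569.2 CPM of Slc2a2, and A/J reaches 602.1 CPM.

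For the other members the most alike genes were *Ak4* (0.789) and *Casc3* (0.784) for *Pcx*, *Mcl1* (0.753) and *Slc15a4* (0.713) for *Ppargc1a*, *Raph1* (0.733) and *Bag3* (0.718) for *Irs1*, and *Ogdh*, a subunit of the 2-oxoglutarate dehydrogenase (0.811), and *Gch1* (0.747) for *Irs2*. For *Pklr* they were *Gstm3* (0.731) and *Akr1c12* (0.69), whose r within strains was -0.158 and -0.163, so the likeness lay in the strain means. *Gstm3*, *Akr1c12*, *Mfsd4b1* and *Atp5g1* have fractional counts in 27 of 27 libraries, *Raph1* in 26, *Casc3* in 20 and *Ak4* in 9, which makes their levels uncertain, and the span of *Slc15a4* overlaps that of *Glt1d1* on the opposite strand.

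The rest of the pathway was read from 7 lists with 146 genes, of which 143 were tested. Strain effects were called in 21 of 23 other gluconeogenic genes, 21 of 25 of glycolysis, 14 of 18 of glycogen metabolism, 9 of 12 of carbohydrate sensing and fructose, 11 of 24 transcription factors and coregulators, 24 of 34 of insulin and glucagon signalling and 6 of 7 of AMPK, beside 74.2% of all genes tested. In NZO/HlLtJ 2 other gluconeogenic genes were called higher and 4 lower, in glycolysis 1 and 4, in glycogen metabolism 1 and 2, in carbohydrate sensing 1 and 3, among transcription factors 0 and 1, in insulin and glucagon signalling 6 and 4 and in AMPK 1 and 0, beside 14.8% of all genes called higher and 12.9% lower. In NOD/ShiLtJ the same counts were 1 and 0, 1 and 2, 0 and 1, 1 and 3, 0 and 1, 1 and 2, and 0 and 1, beside 9.2% of all genes called higher and 5.72% lower. The glycolysis counts include *Pgk1*, as lower in NZO/HlLtJ and as higher in NOD/ShiLtJ. Neither call was kept once the counts of its near-identical copy were added, as given below. The median difference of a list ran from -0.37 (carbohydrate sensing) to 0.13 (AMPK) in NZO/HlLtJ and from -0.3 to 0.11 for the same lists in NOD/ShiLtJ, beside 0.02 over all genes in both strains.

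Among the gluconeogenic genes, *Gpt2*, which makes pyruvate from alanine, was higher in NZO/HlLtJ by 0.7 ± 0.15 (SE, edgeR adjusted p 0.00158), with 303.1 ± 67.1 CPM (SD, n = 3). *Gpd2*, the mitochondrial glycerol phosphate dehydrogenase, was lower, with a difference of -0.37 ± 0.11 (SE, edgeR adjusted p 0.0106). *Ldhb* was lower, with a difference of -1.64 ± 0.44 (adjusted p 0.00749) at 0.4081 CPM. Both levels are uncertain, with fractional counts of *Gpd2* in 16 and of *Ldhb* in 5 of 27 libraries. *Pck2*, the mitochondrial isoform of *Pck1*, was higher in NOD/ShiLtJ by 1.08 ± 0.23 (SE, edgeR adjusted p 0.00192), though at 1.821 ± 0.417 CPM it lay far below *Pck1*. *Gk*, glycerol kinase, had the smallest adjusted p for strain in its list (4.13e-10): PWK/PhJ had 299.2 ± 75.2 CPM, while the strain means elsewhere ran from 43.37 to 85.92 CPM, the highest of them in NOD/ShiLtJ.

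The glycolysis list holds 3 pyruvate dehydrogenase kinases, *Pdk1*, *Pdk2* and *Pdk4*, which turn off entry of pyruvate into the citric acid cycle. In NZO/HlLtJ *Pdk1* was lower, with a difference of -1.05 ± 0.13 (SE, edgeR adjusted p 1.43e-06) and *Pdk4*, a gene induced by fasting, higher by 1.02 ± 0.29 (SE, edgeR adjusted p 0.012), while the value of *Pdk2* was 0.13 ± 0.14 (SE, edgeR adjusted p 0.502). The level of *Pdk4* is uncertain, with fractional counts in 10 of 27 libraries. The *Pdk1* levels were 19.34 ± 2.86 CPM in NZO/HlLtJ, 22.37 ± 3.31 in A/J, 27.57 ± 2.21 in CAST/EiJ and 28.73 ± 2.28 in NOD/ShiLtJ (SD, n = 3 each), and the other strain means ran from 35.54 to 90.27 CPM. *Pdk1* was also lower in NOD/ShiLtJ (-0.41 ± 0.12, SE, edgeR adjusted p 0.0256). *Pfkp* was lower in NOD/ShiLtJ, with a difference of -1.9 ± 0.44 (SE, edgeR adjusted p 0.00373), at 0.1814 CPM, and is uncertain, with fractional counts in 24 of 27 libraries and a span that overlaps that of *Pitrm1* on the opposite strand. *Eno1* had a strain effect (edgeR adjusted p 3.23e-09) but no call in either diabetes-prone strain, and it has fractional counts in 27 of 27 libraries.

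The lowest value of the glycolysis list belonged to a gene with a near-identical copy, and is uncertain. *Pgk1*, phosphoglycerate kinase, had 16.88 ± 2.22 CPM in NZO/HlLtJ and 17.16 ± 1.82 CPM in CAST/EiJ (SD, n = 3 each), and from 156 to 251 CPM on average in the other strains. The fitted difference in NZO/HlLtJ was -3.18 ± 0.22 (9.08-fold lower, SE, edgeR adjusted p 4.56e-11) and in NOD/ShiLtJ 1.05 ± 0.15 (adjusted p 1.37e-05). Its retrocopy *Pgk1-rs7* had 144 ± 15.7 CPM in NZO/HlLtJ and 177 ± 41.8 CPM in CAST/EiJ, and at most 4.05 CPM on average elsewhere. The sum of both was 161 ± 14.5 CPM in NZO/HlLtJ and 230 ± 18 CPM in NOD/ShiLtJ (SD, n = 3 each). With the retrocopy's counts added, neither difference was called (-0.37 in NZO/HlLtJ, edgeR adjusted p 0.114, and 0.21 in NOD/ShiLtJ, adjusted p 0.463).

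In glycogen metabolism *Gbe1*, the branching enzyme, was lower in both diabetes-prone strains, with a difference of -0.58 ± 0.16 in NZO/HlLtJ (SE, edgeR adjusted p 0.00825) and of -0.65 ± 0.16 in NOD/ShiLtJ (SE, edgeR adjusted p 0.00568). The lowest mean was that of A/J, at 39.18 ± 4.67 CPM, beside 41.79 ± 2.94 in NOD/ShiLtJ and 43.54 ± 9.16 in NZO/HlLtJ (SD, n = 3 each), and the other strain means ran from 59.95 to 105 CPM. *Gyg*, glycogenin, was higher in NZO/HlLtJ by 0.74 ± 0.18 (SE, edgeR adjusted p 0.00344). *Ppp1r3g*, a glycogen-targeting subunit of protein phosphatase 1, was lower, with a difference of -3.06 ± 0.92 (SE, edgeR adjusted p 0.0165), at 0.2678 ± 0.0478 CPM, but its levels varied widely within other strains, from 0.2017 to 12.52 CPM in WSB/EiJ. *Phka2* and *Stbd1* had strain effects (edgeR adjusted p 2.72e-06 and 0.000131) with no call in either diabetes-prone strain.

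Among sensors of carbohydrate, *Txnip*, a target of ChREBP that restrains glucose uptake, was lower in NZO/HlLtJ, with a difference of -0.92 ± 0.31 (1.89-fold lower, SE, edgeR adjusted p 0.0287). In NOD/ShiLtJ the value was -0.85 ± 0.31 (SE, edgeR adjusted p 0.0616), not past the threshold. The levels were 26.02 ± 5.76 CPM in NZO/HlLtJ and 27.07 ± 12.9 in NOD/ShiLtJ, and as low in DBA/2J (26.37 ± 10.9) and A/J (29.18 ± 11, SD, n = 3 each), while the remaining strain means ran from 36.59 to 115.6 CPM. *Mlx*, the partner of ChREBP, was higher in NOD/ShiLtJ by 0.64 ± 0.13 (SE, edgeR adjusted p 0.000854), and *Slc2a5*, the fructose transporter, lower, with a difference of -0.95 ± 0.27 (SE, edgeR adjusted p 0.0191). *Nr1h3*, the nuclear receptor LXRα, was higher in NZO/HlLtJ by 0.37 ± 0.11 (SE, edgeR adjusted p 0.0181). The levels of *Mlx* and *Txnip* are uncertain, with fractional counts in 18 and 9 of 27 libraries.

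Of 24 transcription factors and coregulators, 1 was called in each diabetes-prone strain. *Ppargc1b*, the relative of *Ppargc1a*, was lower in NZO/HlLtJ, with a difference of -0.83 ± 0.3 (SE, edgeR adjusted p 0.0416), and its value in NOD/ShiLtJ was -0.9 ± 0.31 (SE, edgeR adjusted p 0.0501). *Sik2*, a kinase that holds back the CREB coactivator CRTC2, was lower in NOD/ShiLtJ, with a difference of -0.43 ± 0.15 (SE, edgeR adjusted p 0.0489), and its span overlaps that of *Ppp2r1b* on the opposite strand. *Klf9*, a factor that glucocorticoids induce, and *Ppara*, the fatty acid receptor, had strain effects (edgeR adjusted p 0.000109 and 0.00209), and neither diabetes-prone strain differed in them past the threshold. *Sik2* and *Prkag1* have fractional counts in 27 of 27 libraries and are uncertain.

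In insulin signalling *Grb10*, an adaptor that inhibits the insulin receptor, was higher in NZO/HlLtJ by 1.45 ± 0.16 (2.73-fold, SE, edgeR adjusted p 1.9e-07). Its level was low, 4.58 ± 0.0547 CPM in NZO/HlLtJ and 0.8481 ± 0.0716 in C57BL/6J, and 129S1/SvImJ was higher still with 8.822 ± 0.807 CPM (SD, n = 3 each). *Trib3*, a pseudokinase that binds AKT, was lower in NZO/HlLtJ, with a difference of -1.06 ± 0.29 (SE, edgeR adjusted p 0.00991). *Socs2*, a suppressor of cytokine signalling, was higher in both NZO/HlLtJ (1.13 ± 0.35, adjusted p 0.0198) and NOD/ShiLtJ (1.06 ± 0.36, adjusted p 0.0464, SE in each case). The level of *Socs2* is uncertain, with fractional counts in 5 of 27 libraries. *Insr*, the insulin receptor itself, had a strain effect (edgeR adjusted p 4.18e-07), with -0.34 ± 0.14 in NZO/HlLtJ (adjusted p 0.0694) and -0.32 ± 0.14 in NOD/ShiLtJ (adjusted p 0.141), and *Rptor* likewise had no call in either.

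*Ceacam1*, which promotes insulin clearance by the liver, had 90.86 ± 5.51 CPM in NOD/ShiLtJ (SD, n = 3), below the means of the other strains, of which CAST/EiJ had the lowest (142.7 CPM) and A/J the highest (380.4 CPM). The fitted difference in NOD/ShiLtJ was -1.48 ± 0.15 (2.78-fold lower, SE, edgeR adjusted p 5.54e-08). It has fractional counts in 27 of 27 libraries, and the similar gene *Ceacam2* had 97.1 ± 3.85 CPM in NOD/ShiLtJ and 0.201 ± 0.0736 in C57BL/6J. With *Ceacam2* added, the difference was -0.63 in NOD/ShiLtJ (edgeR adjusted p 0.00193) and -0.6 in NZO/HlLtJ (adjusted p 0.00201), where *Ceacam1* alone gave -0.28 ± 0.13 (adjusted p 0.119). In the AMPK list, the kinase that senses cellular energy, *Prkaa2* was higher in NZO/HlLtJ by 0.48 ± 0.12 (SE, edgeR adjusted p 0.00388) and *Prkab1* lower in NOD/ShiLtJ, with a difference of -0.33 ± 0.11 (SE, edgeR adjusted p 0.0499), and *Prkag1* had a strain effect (adjusted p 0.000677) without a call in either.

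**Figure D4:**
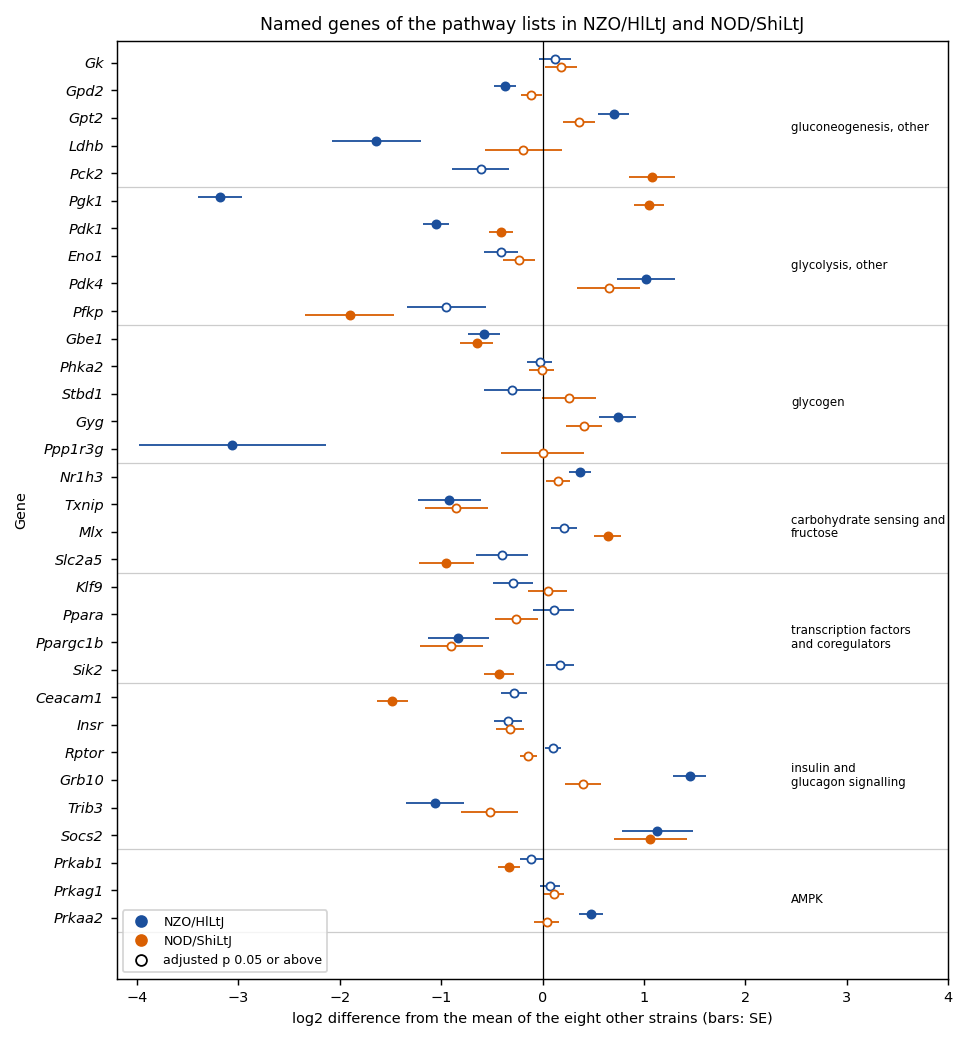
Log2 difference from the mean of the other 8 strains (points, with SE bars) of genes named in the text from 7 pathway lists in NZO/HlLtJ (blue) and NOD/ShiLtJ (orange), filled where the edgeR adjusted p was under 0.05. The value furthest to the left, Pgk1 in NZO/HlLtJ at -3.18, was not called once the counts of its retrocopy were added, while Gbe1, Pdk1 and Socs2 are filled on the same side in both strains.

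Values that moved with the strain comparisons were read beside them. In NZO/HlLtJ the summed Kupffer cell markers (12 of 12 detected) ran from 39 to 100.3 CPM and the endothelial markers (12 of 12 detected) from 76.94 to 135.1 CPM, while PWK/PhJ had 160 to 464.5 and 279.8 to 926 CPM. The Kupffer cell sums of 129S1/SvImJ (46.12 to 99.92 CPM), CAST/EiJ (65.58 to 79.19 CPM) and NOD/ShiLtJ (81.11 to 91.92 CPM) lay within the range of NZO/HlLtJ. With the mean log2 levels of both lists as covariates, *Slc2a2* and *Irs1* were still called lower in NZO/HlLtJ, and *Pck1* (-1.41, edgeR adjusted p 0.0588) and *Pklr* (-0.59, adjusted p 0.0614) were not. Of 10 periportal genes, which mark the zone of the liver lobule where gluconeogenesis is strongest, 9 were called higher in WSB/EiJ (15.5% of all genes), 4 lower and 1 higher in NZO/HlLtJ (12.9% and 14.8%) and 4 lower in NOD/ShiLtJ (5.72%). A/J had 5 lower and 2 higher (11.6% and 15.9%) and C57BL/6J 4 lower and 1 higher (6.5% and 11.6%). PWK/PhJ had 4 higher and 0 lower (19.4% and 14.8%). CAST/EiJ had 2 higher (20.1%), 129S1/SvImJ 2 lower (7.86%) and DBA/2J 0 called (13.3%). The part of zonation in the values of the members was not tested.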

How the data were processed

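Hepatocyte poly(A) RNA was sequenced from 27 libraries of 9 strains. The authors deposited 1 table of estimated counts per gene, not normalized, of which 14.7% were not whole. The submitters' processing notes name FastQC 0.11.5, DESeq2 and the builds GRCm38 and mm10, and the aligner and counter are not given in the sources used here. Symbols, positions and exon lengths came from GENCODE M21 (42462 of 43346 identifiers matched). Positions on GRCm38 are *Irs1* chr1:82233101-82291416, *Pck1* chr2:173153048-173159273, *Slc2a2* chr3:28697903-28731359, *Pklr* chr3:89136142-89146784, *Ppargc1a* chr5:51454250-51567726, *Irs2* chr8:10984681-11008458, *G6pc* chr11:101367561-101377903, *Fbp1* chr13:62864753-62888282 and *Pcx* chr19:4510472-4621752. Reads of genes that overlap on opposite strands (*Irs1*, *Pklr*, *Irs2*) cannot be told apart. *Pck1* has fractional counts in 4 of 27 libraries.

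Counts were rounded (changing no total by more than 0.00026%) and tested with edgeR 4.0.16 in R 4.3.3: filterByExpr by strain, TMM factors (0.722 to 1.226), and 1 quasi-likelihood fit on all libraries, checked on simulated data. One count equals 0.0253 to 0.0516 CPM. Alternatives were DESeq2 1.42.0, median-of-ratios factors, no filter or a mean of at least 10 counts, a replicate block, cell marker covariates, a GC trend removed and each library left out. The p-values set differences between strains against the spread between these libraries. Members and lists were chosen with earlier results of these data known. Of each pathway list the text names the 3 genes averaging at least 10 CPM with the smallest strain p and the called genes highest and lowest in NZO/HlLtJ and NOD/ShiLtJ. For the genes most alike, the 2 with the highest r are named. Some genes that these rules would name are not reported here.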

Additional observations from a re-analysis of the deposited data

How the results depend on the processing

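In the alternatives run, no member value past the threshold in either fit changed direction. Without each library in turn, the members called ran from 7 to 9 for the strain effect, 1 to 5 in NZO/HlLtJ, 1 to 3 in NOD/ShiLtJ, 2 to 6 in WSB/EiJ, 1 to 3 in CAST/EiJ, 1 to 3 in PWK/PhJ, 0 to 2 in A/J, 0 to 1 in DBA/2J, 0 to 1 in C57BL/6J and 0 to 1 for NZO/HlLtJ against NOD/ShiLtJ. Genes called overall ran from 1329 to 2332 in NOD/ShiLtJ, 2084 to 4501 in NZO/HlLtJ and 1011 to 1700 between the 2 strains. Between NZO/HlLtJ and NOD/ShiLtJ, 1 member was called by DESeq2 (*Pklr*), 1 with no filter on low counts (*Pck1*), 1 with overlapping or near-identical genes added (*Irs1*, an alternative chosen after seeing the data) and 2 with the 6 libraries of these strains alone (*Fbp1* and *Pklr*, 2512 genes overall). With Kupffer and endothelial covariates 2 members and 1870 genes were called in NZO/HlLtJ. The cause of these changes was not tested.

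Replicate numbers did not pair the libraries: deviations of libraries with the same number in different strains correlated by 0.01 on average (lowest -0.293), and 7 of 27 libraries correlated best with their own number. With a replicate block, 3 members were called in WSB/EiJ and 1 in CAST/EiJ (*Fbp1* and *Irs1* were lost in both), where genes called overall went from 3581 to 2883 and from 5488 to 3193. Replicate number 5 occurs in CAST/EiJ alone, so the block fits that library by itself. The CAST/EiJ values with the block therefore rest on the other libraries of that strain, and the 2 effects cannot be told apart. The block gave 1 call between NZO/HlLtJ and NOD/ShiLtJ (*Pck1*), and the *Irs2* strain effect had an adjusted p of 0.0852 in edgeR. Depth limits *Ppargc1a* and *Irs2* most, at 104 and 95 counts in their lowest libraries.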

Other observations

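Clock genes, which follow the time of day, differed between strains as well, and the genes named from these lists were chosen after their values were seen. In NOD/ShiLtJ, of 13 clock genes 6 were called lower (5.72% of all genes) and 1 higher (9.2%, edgeR adjusted p under 0.05): *Nr1d1*, a repressor of the clock, was lower, with a difference of -1.59 ± 0.36 (SE, adjusted p 0.00314) and *Cry1* higher by 0.83 ± 0.22 (SE, adjusted p 0.0119). In NZO/HlLtJ 3 were higher, among them *Npas2* (1.79 ± 0.34, SE, adjusted p 0.000366) and *Arntl* (0.86 ± 0.26, SE, adjusted p 0.0163), and 2 lower, *Nr1d1* (-2.02 ± 0.38, SE, adjusted p 0.000309) and *Nr1d2* (-0.94 ± 0.21, SE, adjusted p 0.00186), beside 14.8% of all genes higher and 12.9% lower. A/J had 3 clock genes higher and 2 lower (15.9% and 11.6% of all genes), and WSB/EiJ and CAST/EiJ 4 higher each (15.5% and 20.1%). Of 9 fasting-induced genes edgeR called 0 in NZO/HlLtJ (1 at an unadjusted p under 0.05, 0 by DESeq2) and 1 lower in NOD/ShiLtJ, *Cpt1a* (-0.55 ± 0.18, SE, adjusted p 0.0408), whose product lets fatty acids enter mitochondria, and its value in NZO/HlLtJ was -0.41 ± 0.18 (SE, adjusted p 0.0883). The most calls from that list in any strain were 3, all higher in C57BL/6J (18.1% of all genes called in either direction) and 1 higher and 2 lower in PWK/PhJ (34.2%). Of 9 feeding-induced genes edgeR called 0 in NZO/HlLtJ and 0 in NOD/ShiLtJ (1 each at an unadjusted p under 0.05, and 1 and 0 by DESeq2), 4 lower in CAST/EiJ (37.9% called in either direction), 4 higher in PWK/PhJ and 3 higher in DBA/2J (13.3%). The hour of collection is not in the labels used here, and its part in these differences was not tested.

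In the periportal list, *Hal*, the first enzyme of histidine breakdown, was lower in NOD/ShiLtJ, with a difference of -1.29 ± 0.17 (SE, edgeR adjusted p 3.06e-06) and was not called in NZO/HlLtJ (0.18 ± 0.15, adjusted p 0.357). *Ass1*, an enzyme of the urea cycle, was higher in NZO/HlLtJ by 0.54 ± 0.15 (SE, edgeR adjusted p 0.00988), while *Cyp2f2* was lower there, with a difference of -0.8 ± 0.21 (SE, adjusted p 0.00623). *Ctsc* and *Pigr* were lower in both strains, with -0.95 ± 0.19 and -0.5 ± 0.15 in NOD/ShiLtJ (adjusted p 0.000737 and 0.0202) and -0.71 ± 0.18 and -0.66 ± 0.15 in NZO/HlLtJ (adjusted p 0.00601 and 0.00188, SE in each case).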
